A study of Mus musculus with 6 samples.

Results

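The 10 genes described here carry the main steps of antigen presentation on MHC class I, and were taken by symbol from the 33696 features of the count matrices: B2m, H2-K1, H2-D1, Tap1, Tap2, Tapbp, Nlrc5, Psmb8, Psmb9 and Psmb10. All 10 were found. They were followed in droplet-based single-cell 3′ RNA counts of 5 libraries from mouse mammary tumours, in every class of cells that could be recognised by marker genes, including a few epithelial-like cells.

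Each library carries 1 treatment label: MRX, CTX, Combined, ctxd18t or combod18t. A sixth library, VC, was not analysed here beyond its barcodes. The series title names MERTK inhibition and cyclophosphamide in triple negative breast cancer, but the labels spell out neither drug, so the libraries are called by their labels. Per the labels' protocols, mice at day 7 were dosed 3 hours before tumours were taken, and live cells carrying CD45, a protein of blood-derived cells, were sorted. The label d18 is read as day 18. Strain, age, tumour line, doses and the number of mice per library are not given in the sources used here. With 1 library per label no difference has a replicate check and no p-value is given. All intervals are 95% intervals for counting error only and say nothing of the spread between mice.

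MHC class I molecules show peptides from inside the cell to CD8 T cells. The proteasome cuts proteins into peptides, and in immune cells and under interferon its catalytic subunits are exchanged for Psmb8, Psmb9 and Psmb10, the immunoproteasome. Tap1 and Tap2 form the pump that carries peptides into the endoplasmic reticulum, and Tapbp (tapasin) holds the pump next to empty class I molecules. There the heavy chains H2-K1 and H2-D1 pair with the light chain B2m. Nlrc5 is a transactivator of class I genes that acts through a set of promoter elements they share.

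Those elements are why 3 promoters are shown. The windows are the 250 bases before the gene start in RefSeq on GRCm38.p6, matched by symbol; the counts were made on GRCm39, so the coordinates are those of the sequence table only. B2m lies at chr2:122147437-122147686 on the plus strand, H2-K1 at chr17:34000348-34000597 on the minus strand and H2-D1 at chr17:35262844-35263093 on the plus strand. Capitals mark TGACG followed by ATTGG after a gap of 20 bases, GAAA or GAA followed by GAAA after 2 bases (the kind of repeat read by interferon-regulated factors), and GGGA followed by CC after 4 bases (an NF-kappa-B type motif), each searched on both strands; matches that overlap run together.
B2m: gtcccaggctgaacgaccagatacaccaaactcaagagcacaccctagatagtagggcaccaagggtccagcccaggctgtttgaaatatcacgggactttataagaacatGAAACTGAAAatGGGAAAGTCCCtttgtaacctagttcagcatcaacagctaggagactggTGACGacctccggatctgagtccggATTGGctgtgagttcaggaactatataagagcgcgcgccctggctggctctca
H2-K1: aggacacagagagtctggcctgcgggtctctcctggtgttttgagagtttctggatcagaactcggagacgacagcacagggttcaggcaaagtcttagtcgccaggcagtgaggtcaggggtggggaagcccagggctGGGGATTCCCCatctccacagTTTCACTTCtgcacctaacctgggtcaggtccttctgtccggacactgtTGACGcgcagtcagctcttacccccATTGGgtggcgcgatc
H2-D1: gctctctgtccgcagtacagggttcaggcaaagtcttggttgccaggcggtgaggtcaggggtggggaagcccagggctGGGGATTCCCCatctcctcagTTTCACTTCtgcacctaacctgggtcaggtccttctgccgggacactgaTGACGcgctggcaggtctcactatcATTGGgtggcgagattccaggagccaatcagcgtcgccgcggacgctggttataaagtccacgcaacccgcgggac
In all 3 windows the TGACG and ATTGG pair lay nearest the gene start. The NF-kappa-B type match lay next to it in B2m, with the GAAA repeat before it, while in H2-K1 and H2-D1 the repeat lay between the other matches. The TGACG and ATTGG pair at this gap was found in 30 of 32851 promoter windows of the same length (0.0913%), which belong to 26 genes; H2-M3, a class Ib gene, is among them. GAAA with GAAA after 2 bases was in 2.98% of windows and in that of B2m, and GAA with GAAA in 6.31% and in those of H2-K1 and H2-D1. GGGA with CC after 4 bases was in 17.6% of windows, these 3 included. The windows of Tap1, Tapbp, Psmb8, Psmb9 and Psmb10 held none of these matches. The motifs and the gaps were chosen after these sequences were seen, so the shares describe the windows and test nothing. Best aligned without gaps, the windows of H2-K1 and H2-D1 were identical at 166 of 190 bases (87.4%). The windows of Tap1 and Psmb9, which point away from each other, overlapped over 225 of 250 bases. Of the 10 genes, 8 were matched to the table.

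The libraries held 4085 to 9064 barcodes and 39820290 to 100733879 UMI counts, in which each captured transcript is counted once by its molecular tag. Between 3826 and 8520 cells per library were kept, with a median of 6239 to 8907 UMIs. Cells formed 34 clusters, named from marker genes with the ending "-like". Monocyte-macrophage-like, T-like, NK-like, neutrophil-like, plasmacytoid dendritic (pDC)-like cells and B-like cluster 2 had at least 20 cells in all 5 libraries; the conventional and migratory dendritic and epithelial-like groups did not. Cluster 17, led by Jchain, Ighg2b, Ighg2c and Igkc, genes of antibody-secreting cells, scored highest for B markers but had none among its 10 leading genes, so it was left without a name and is called by its number; it was measured in the d18 libraries only. The protocol ties 1 barcode set each to Combined, CTX, MRX and VC and none to the d18 libraries. No barcode was shared among those 4 libraries, but ctxd18t shared 21 with Combined and none with CTX, and combod18t shared 34 with CTX and none with Combined. Every d18 direction below rests on the labels as given, and whether they were exchanged was not tested.

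Levels are given as CPM: the UMI counts of a gene in all cells that a class has in 1 library, per 1000000 UMIs of the same cells. Because 3′ counting follows capture at the transcript end and no per-length scale applies, levels are compared for 1 gene across classes and not between genes. Ranks are given over the 6 classes measured in all 5 libraries, and the other groups are set beside them by library.

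**Figure D1:**
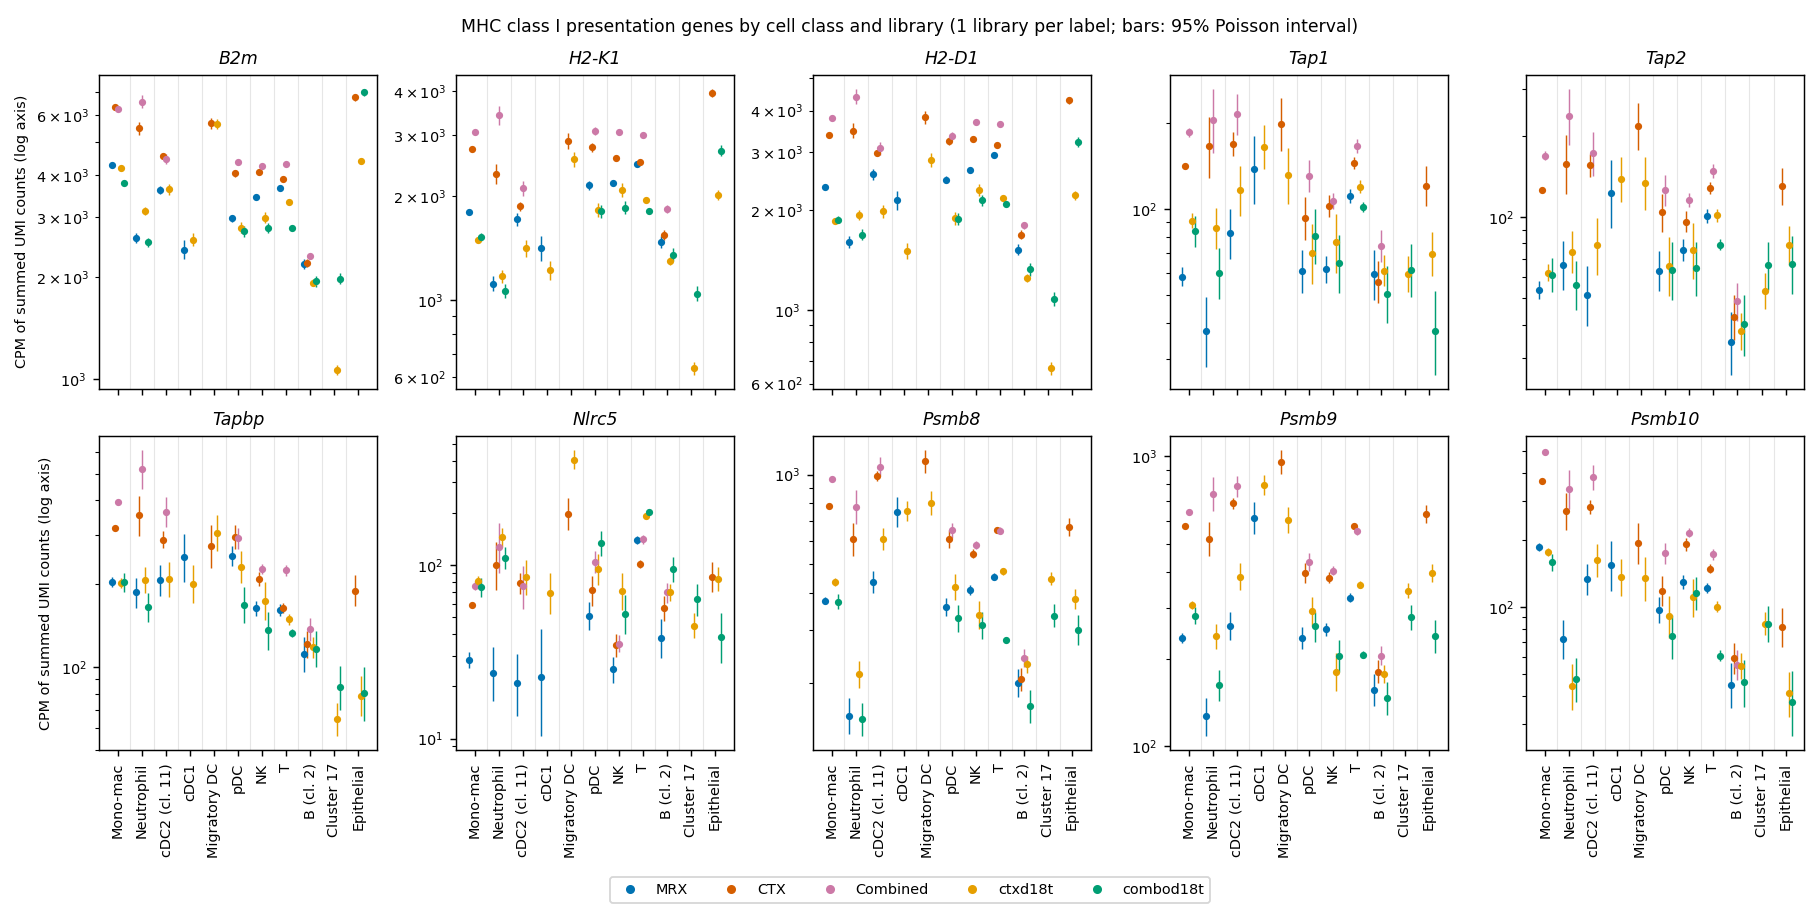
Level of each of the 10 genes (CPM, log axis) in each cell class, with 1 point per library and 95% Poisson intervals; classes with fewer than 20 cells in a library have no point. Of the 6 classes with 5 points, B-like cluster 2 lies lowest for B2m, H2-D1, Tap2 and Tapbp in all 5 libraries; cluster 17 lies lower still for H2-D1 and Tapbp in both d18 libraries, and the neutrophil-like points spread most between libraries.

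B2m, the light chain, was high in every class. Across MRX, CTX, Combined, ctxd18t and combod18t, the order kept wherever 5 values follow each other, monocyte-macrophage-like cells held 4267, 6347, 6266, 4184 and 3798 CPM. T-like cells held 3673, 3896, 4294, 3338 and 2796 CPM. Monocyte-macrophage-like cells were above T-like cells in 5 of 5 libraries, although the ranges of the 2 classes over libraries overlap. Of the 6 classes, B-like cluster 2 was lowest in every library, at 1927 to 2310 CPM. Cluster 17 held 1068 CPM in ctxd18t and 1977 in combod18t, and cDC1-like cells 2407 in MRX and 2577 in ctxd18t. Migratory dendritic-like cells, measured in CTX and ctxd18t only, held 5677 and 5665 CPM.

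The heavy chains followed another order. H2-K1 in T-like cells was 2467, 2507, 2996, 1949 and 1804 CPM, and NK-like cells held 2183, 2571, 3060, 2082 and 1849. The highest of the 6 classes was T-like, NK-like, pDC-like or neutrophil-like depending on the library. Outside them, epithelial-like cells were higher in CTX and combod18t, and migratory dendritic-like cells in CTX and ctxd18t (2882 and 2552 CPM). pDC-like cells exceeded monocyte-macrophage-like cells in H2-K1 in 5 of 5 libraries, the reverse of their order for B2m. H2-D1 in T-like cells was 2932, 3142, 3633, 2176 and 2084 CPM. Of the 6 classes, B-like cluster 2 was lowest for H2-D1 in every library, at 1253 to 1802 CPM, and neutrophil-like cells were lowest for H2-K1 in MRX and both d18 libraries. Cluster 17 lay below both, with H2-D1 at 667 and 1080 CPM and H2-K1 at 638 and 1044 CPM in ctxd18t and combod18t. Reads of near-identical class I genes can be assigned to the wrong copy, and the alleles of these mice are not given, so H2-K1 and H2-D1 levels carry that uncertainty.

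Tap1 and Tap2 form the peptide pump. Migratory dendritic-like cells had 199 CPM of Tap1 in CTX and 131 in ctxd18t, and cDC1-like cells, a dendritic type known for cross-presentation to CD8 T cells, had 139 in MRX and 165 in ctxd18t. Both groups were above T-like cells for Tap1 and Tap2 in each library where they were measured. cDC2-like cluster 11 was above T-like cells for both genes in CTX and Combined and below them in MRX and ctxd18t. Among the 6 classes, T-like cells had the highest median for both, with Tap1 at 102 to 166 CPM and Tap2 at 79.3 to 149 CPM. Tapbp, which bridges pump and heavy chain, had its highest median among those 6 in pDC-like cells, at 168 to 295 CPM. T-like cells had the second lowest median of the 6 for Tapbp, at 133 to 223 CPM.

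Nlrc5, the transactivator, was higher in T-like cells than in the other 5 of these classes in every library. The T-like values were 140, 102, 141, 193 and 202 CPM. NK-like cells held at most 71.2 CPM, in ctxd18t, and were the lowest of the 6 in 3 of 5 libraries. Migratory dendritic-like cells were above T-like cells in both libraries where they were measured, at 199 CPM in CTX and 407 in ctxd18t.

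The immunoproteasome subunits split by lineage. Of the 6 classes, Psmb10 was highest in monocyte-macrophage-like cells in 5 of 5 libraries, at 186, 369, 493, 176 and 158 CPM, against 44.7 to 58.9 CPM in B-like cluster 2. Psmb8 was highest of the 6 in monocyte-macrophage-like cells in 3 libraries and in T-like cells in the other 2. Psmb9 was highest of the 6 in T-like cells in 3 libraries and in monocyte-macrophage-like or neutrophil-like cells in the rest. Migratory dendritic-like cells, at 1107 CPM in CTX and 804 in ctxd18t, lay above the 6 classes for Psmb8. So did cDC1-like cells, at 750 CPM in MRX and 755 in ctxd18t, and cDC2-like cluster 11 of Combined, at 1063. In MRX cluster 11 held 436 CPM, below T-like cells at 454. cDC2-like cluster 32 held 429 CPM in ctxd18t and 314 in combod18t, below monocyte-macrophage-like cells at 436 and 374.

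Most neighbours in these orders have ranges over libraries that overlap. Of 50 adjacent pairs of classes, ranked by median over the 6 classes and 10 genes, 48 had overlapping ranges. The 2 exceptions were B2m in pDC-like cells over B-like cluster 2 and Tap2 in monocyte-macrophage-like cells over B-like cluster 2. Since the libraries differ in treatment, these ranges hold treatment as well as library differences. Overlapping ranges do not show the order within each library. Some overlapping pairs kept their order in 5 of 5 libraries, such as Psmb10 in monocyte-macrophage-like over NK-like cells and Nlrc5 in T-like over neutrophil-like cells. Others did not, such as H2-D1 in T-like over NK-like cells, which held in 1 of 5.

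The balance of immunoproteasome against standard subunits can be read within each catalytic pair, as the share of UMI counts that come from Psmb8 (over Psmb8 and Psmb5), Psmb9 (with Psmb6) or Psmb10 (with Psmb7). Monocyte-macrophage-like cells had a Psmb10 share of 63.7%, 72.9%, 74.3%, 63.1% and 60.4%. T-like cells had 58.5%, 56.2%, 59.7%, 55.2% and 46.7%. The Psmb9 share in monocyte-macrophage-like cells was 59.0% in MRX and 67.0% to 71.5% in the other 4 libraries. B-like cluster 2 had Psmb10 shares of 39.1% to 48.4%. Epithelial-like cells lay lower, at 23.3% in CTX (exact binomial interval 19.4% to 27.6%) and 15.7% in combod18t with ctxd18t between them. Their Psmb8 shares of 66.9% in CTX, 60.5% in ctxd18t and 51.5% in combod18t were also below every other named class of the same library. Their Psmb9 shares of 71.6% in CTX and 68.6% in ctxd18t lay within the range of the other classes. In combod18t their Psmb9 share of 58.4% lay below that range.

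**Figure D2:**
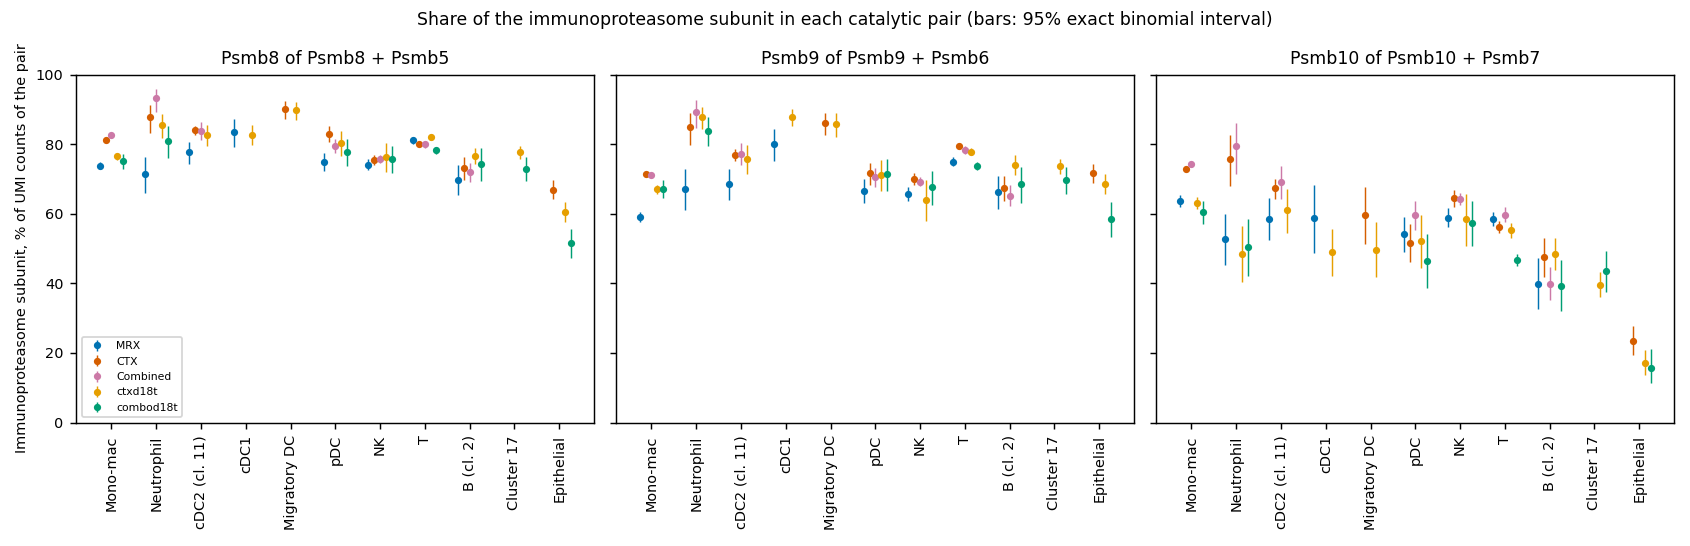
Share of the immunoproteasome subunit in the UMI counts of each catalytic pair, by cell class and library, with exact 95% binomial intervals. Psmb10 in epithelial-like cells lies at 15.7% to 23.3%, below every other named class.

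Epithelial-like cells (cluster 25) numbered 9, 29, 3, 48 and 20 in the 5 libraries, so only CTX and the d18 libraries are summed. All 10 epithelial markers were detected in these 3, summing to 5155 to 7437 CPM against 7.36 to 42.4 CPM in monocyte-macrophage-like cells. The cells passed a sort for CD45, yet Ptprc, which encodes CD45, was at 7.29 CPM in CTX, 57.4 in ctxd18t and 59.9 in combod18t, against 780 to 1297 CPM in monocyte-macrophage-like cells. Monocyte-macrophage markers summed to 169, 294 and 897 CPM and T markers to 6.48, 86.4 and 135 CPM in the same order. Of the 14 monocyte-macrophage markers, 13 had counts in CTX, 11 in ctxd18t and 12 in combod18t. Among those without counts, Adgre1, which encodes F4/80, was at 0 in all 3. No marker here separates tumour cells from normal epithelium, and whether cells that come through a CD45 sort stand for the rest of the epithelium was not tested.

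Their class I levels were not low. B2m was 6767 CPM in CTX, 4397 in ctxd18t and 7010 in combod18t, above T-like cells in all 3. H2-K1 was 3958, 2014 and 2700 CPM and H2-D1 4291, 2221 and 3208 CPM, both highest in CTX. In all 3 these heavy chain levels exceeded those of monocyte-macrophage-like cells (H2-K1 2724, 1493 and 1522 CPM, H2-D1 3370, 1854 and 1875 CPM). The processing genes did not all stand alike. Psmb10 was at 81.0, 41.0 and 37.6 CPM against 158 to 369 CPM in monocyte-macrophage-like cells of the same libraries, and Tapbp at 189, 78.7 and 80.2 against 201 to 318. Tap1 and Psmb8 were also below those cells in all 3. Tap2 was above them in all 3, at 130, 78.7 and 67.0 CPM against 127, 62.4 and 61.1. Psmb9 was above them in CTX (633 against 573) and ctxd18t (396 against 307) and below in combod18t (240 against 282).

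Single epithelial-like cells varied widely. In CTX the 10th to 90th percentile of B2m ran from 1497 to 9360 CPM per cell around a median of 6158. In ctxd18t it ran from 2074 to 6316 around 3892, and in combod18t from 2173 to 10393 around 4684. None of these cells lacked an H2-K1 or an H2-D1 UMI, and 1 cell, in CTX with 8305 UMIs, had no B2m UMI. Of the cells in the libraries too small to sum, the 9 in MRX held 1383 to 6377 CPM of B2m and the 3 in Combined 2121 to 14938. Cluster 24, 128 cells with Krt17, Sfn and Csn3 among its leading genes but a low UMI count per cell (0.18 times its libraries' median), was left unnamed; it held 4841 CPM of B2m in CTX and 3172 in ctxd18t, with Psmb10 shares of 31.2% and 21.4%.

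**Figure D3:**
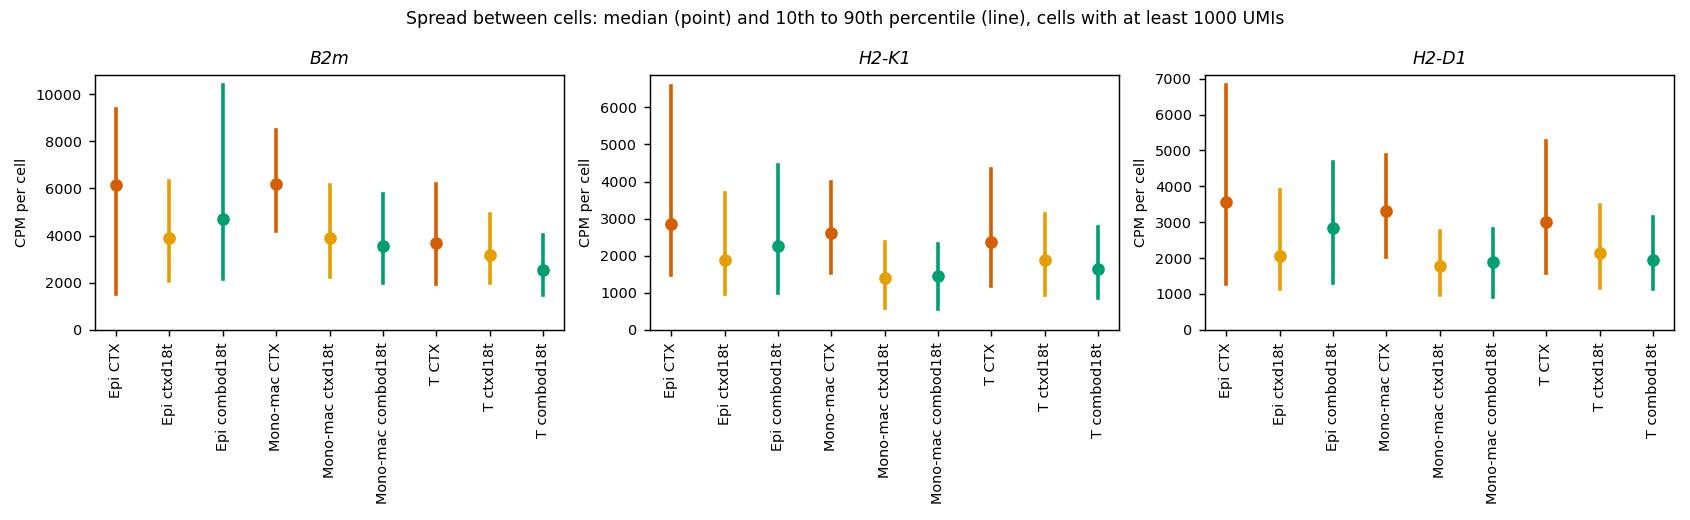
B2m, H2-K1 and H2-D1 per cell (CPM) in epithelial-like, monocyte-macrophage-like and T-like cells of the 3 libraries with at least 20 epithelial-like cells; points are medians and lines run from the 10th to the 90th percentile. The epithelial-like B2m line in CTX runs from 1497 to 9360 CPM.

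For comparisons between libraries, a gene was called when its log2 ratio of CPM + 1 was at least 1.5-fold either way (0.58 on the log2 scale), among genes with at least 100 counts over both libraries and a mean of at least 20 CPM. The pseudocount understates changes of low genes. Each count of members is set beside the share of all such genes called in the same class or cluster, and MRX serves as the reference of both comparisons in the next paragraphs, so those are not independent.

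In monocyte-macrophage-like cells nearly all of the 10 genes were higher in CTX and in Combined than in MRX. CTX against MRX called 8 of 10, all higher, where 8.25% of 5722 genes were called (4.35% higher); the members' median was 1.01 and that of all genes 0.01. Combined against MRX called 9 of 10, all higher, where 15.3% were called (8.31% higher), with medians of 1.37 and 0.08. The peptide pump, the immunoproteasome and Nlrc5 each moved more than Tapbp and the chains in both comparisons. Tap1 was 58.0 CPM in MRX, 141 in CTX and 185 in Combined, log2 ratios of 1.27 (1.17 to 1.40) and 1.66 (1.55 to 1.80). Psmb9 was 236, 573 and 643 CPM, ratios of 1.28 (1.23 to 1.34) and 1.44 (1.39 to 1.51). Nlrc5 was 28.3, 59.3 and 76.0 CPM, and here MRX stood below all 4 other libraries, the d18 libraries included at 80.8 and 74.5. Among the chains H2-K1 moved by 0.60 and 0.77, H2-D1 by 0.52 and 0.69, and B2m by 0.57 and 0.55, which stayed under the 1.5-fold line.

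The class is not made of the same cells in each library. Cluster 0 (Ly6i, Lpl, Cxcl9) held 2312 of 4323 cells in CTX and 815 of 1185 in Combined, whereas clusters 1 (C1q genes) and 5 (Vcan, F13a1) held 691 and 493 of 1378 in MRX. Within cluster 1 all 10 members were called higher in CTX against MRX, with a median log2 ratio of 0.97, where 4.52% of genes were called higher. Within cluster 5, 7 members were, with a median of 0.85 (6.29% of genes higher). Within cluster 0, which had higher levels in MRX to begin with (Psmb9 378 CPM, against 199 in cluster 1 and 219 in cluster 5), 2 were called, Tap1 and Psmb9 (5.82% of genes higher), and within cluster 16, led by interferon-response genes such as Rsad2 and Ifit2, none was (16.7% of genes either way). With each cluster given equal weight in both libraries, 6 members were called higher in CTX against MRX with a median of 0.71 (3.36% of genes higher), and 8 in Combined against MRX with a median of 0.94 (5.65%).

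**Figure D4:**
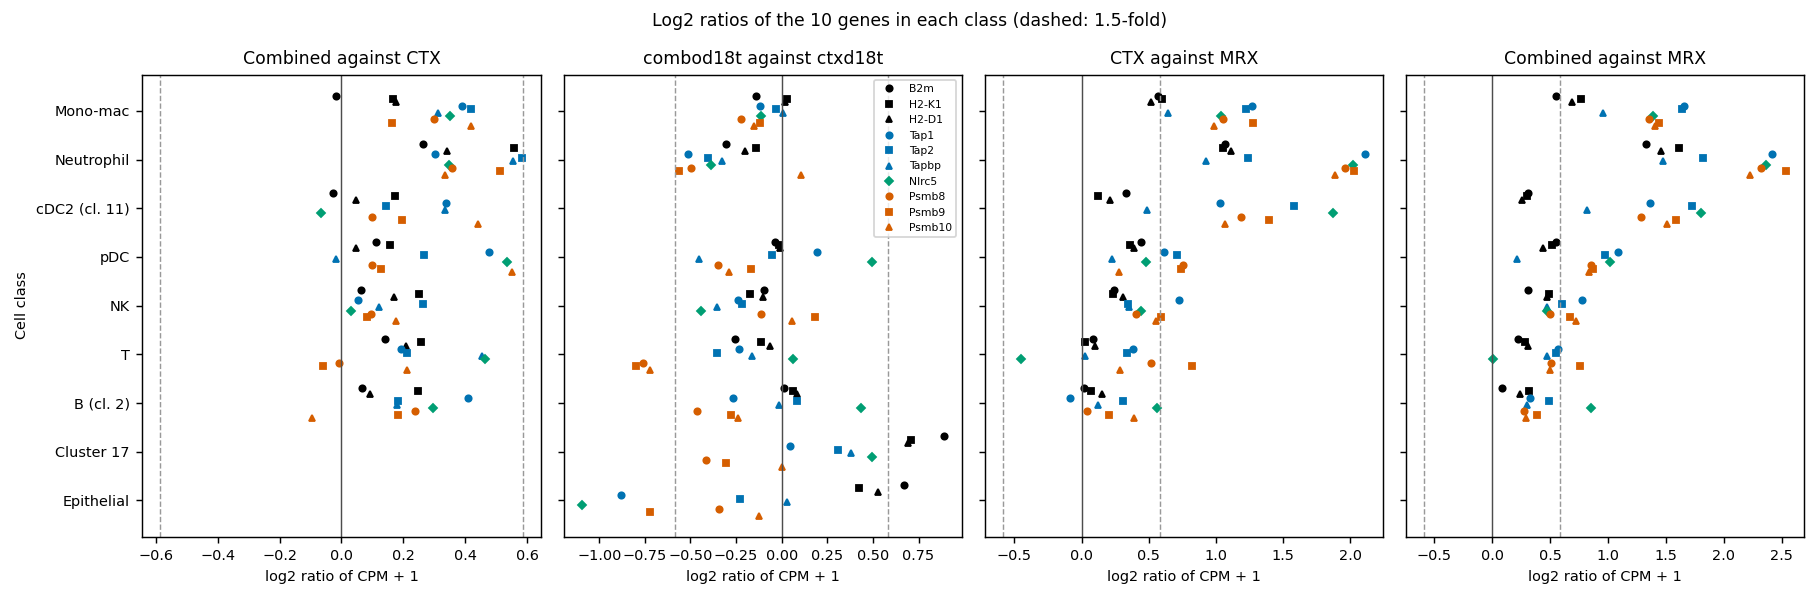
Log2 ratios (CPM + 1) of the 10 genes for the 4 comparisons in the cell classes with at least 20 cells in both libraries (cDC2-like cluster 32 not drawn), 1 marker per gene, with dashed lines at 1.5-fold. Members lie to the right of 0 in nearly all classes against MRX, within the dashed lines for Combined against CTX, and for combod18t against ctxd18t the T-like proteasome subunits lie left while the chains of cluster 17 lie right.

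Neutrophil-like cells had the widest ratios. Of the 10 members, Nlrc5 had too few counts in CTX and MRX together to be tested; the other 9 were called higher in CTX against MRX, where 44.2% of 2739 genes were called either way and 17.1% higher. Psmb8 was 155 CPM in MRX, 607 in CTX and 778 in Combined, and 213 in ctxd18t and 151 in combod18t. The members did not all stand alike in the d18 libraries. Tap1 was 37.6 CPM in MRX and higher in ctxd18t (85.9) and combod18t (59.8). Psmb10 was 71.6 CPM in MRX and lower in ctxd18t (44.1) and combod18t (47.6). The CTX and Combined values rest on 92 and 77 cells at medians of 2824 and 3232 UMIs. The 14 monocyte-macrophage markers were all detected in them and summed to 1366 CPM in MRX, 7767 in CTX and 4776 in Combined. The sum was higher in CTX and Combined than in MRX, and lower in Combined than in CTX. The part of RNA or cells of that lineage in the result was not tested. In Combined against MRX 9 of 9 were called higher, where 33.7% of genes were called (14.1% higher).

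In cDC2-like cluster 11 the pump, Tapbp, Nlrc5 and the immunoproteasome all differed more than the chains against MRX. There 6 of 10 members were called higher in CTX against MRX, where 17.4% of genes were called (9.51% higher): Tap1, Tap2, Nlrc5, Psmb8, Psmb9 and Psmb10. Psmb8 there was 436 CPM in MRX, 992 in CTX and 1063 in Combined. H2-K1 was 1710, 1865 and 2102 CPM, log2 ratios of 0.13 and 0.30, which were not called. Combined against MRX called 6 of the 9 tested there, all higher, where 22.5% of genes were called (12.1% higher). In pDC-like cells 4 of 10 were called higher in CTX against MRX (7.54% of genes, 3.65% higher) and 6 in Combined against MRX (14.6%, 9.97% higher). Tapbp, at 0.23 and 0.21, lay below all 3 chains (0.36 to 0.55) in both. The 11 T markers, all detected in pDC-like cells, summed to 110 CPM in MRX, 367 in CTX and 1210 in Combined, and the B markers to 29.7, 101 and 104 CPM; their part in the result was not tested.

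Lymphoid classes differed less between these libraries. NK-like cells had 2 members called higher in CTX against MRX (4.43% of genes, 2.21% higher), Tap1 at 0.73 and Psmb9 at 0.59, and 4 in Combined against MRX (6.22%, 3.47% higher). T-like cells had 1 called higher in each, Psmb9, where 12.2% and 11.9% of genes were called (7.36% and 8.58% higher); it was 325 CPM in MRX, 575 in CTX and 552 in Combined. B-like cluster 2 had none in CTX against MRX (3.71% of genes called) and 1 in Combined against MRX (7.15%, 5.17% higher), Nlrc5 at 0.85. T-like clusters gave different counts. Cluster 9 (Foxp3) and cluster 10 (Cd4, Cd40lg) each had the pump and the 3 immunoproteasome subunits called higher in CTX against MRX, where 5.06% and 4.34% of genes were called higher. Clusters 3 and 6, both with Lef1 among their leading genes, had none (4.09% and 3.43% of genes either way). In the small cluster 23 (Il17a, Trdc), 30 cells in Combined and 34 in MRX, only 6 members had enough counts, and all 6 were called higher in Combined with a median of 1.03, where 10.3% of 789 genes were called higher. Whether classes or clusters differ in response was not tested.

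Combined was then set against CTX directly, a pair that shares no library with the d18 pair. None of the 10 genes was called in any of 7 classes, where 2.69% of genes were called in monocyte-macrophage-like, 2.16% in T-like, 1.4% in NK-like, 10.2% in pDC-like and 28.1% in neutrophil-like cells, 3.6% in B-like cluster 2 and 9.03% in cDC2-like cluster 11. The ratios were mostly above 0, and some lay just under the 1.5-fold line, such as Tap2 (0.58) in neutrophil-like and Psmb10 (0.55) in pDC-like cells. Nlrc5 had too few counts to be tested in neutrophil-like cells. In monocyte-macrophage-like cells 9 of 10 were above 0, with a median of 0.31 against 0.07 for all genes, led by Tap2 at 0.42 (0.35 to 0.49) and Psmb10 at 0.42 (0.38 to 0.46). B2m was level, at 6347 CPM in CTX and 6266 in Combined. In T-like cells the median was 0.21 against 0.09 for all genes, with Nlrc5 at 0.46 and Tapbp at 0.45 the highest and Psmb9 at -0.06 the lowest. Within clusters, Tap1 (0.60) and Nlrc5 (0.69) were called higher in cluster 1 (1.88% of genes higher), and Nlrc5 (0.66) in cluster 21, with Foxp3 and Mki67 among its leading genes (5.18% higher).

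At day 18 the members called in a large class were in T-like cells. In combod18t against ctxd18t the 3 immunoproteasome subunits were called lower, where 14.4% of 6382 genes were called (8.6% lower). Psmb8 was 278 CPM in combod18t and 472 in ctxd18t, a log2 ratio of -0.76 (-0.82 to -0.71), Psmb9 207 and 361 CPM at -0.80, and Psmb10 60.6 and 100.5 CPM at -0.72. The other 7 members ranged from -0.36 (Tap2) to 0.06 (Nlrc5). Other proteasome genes also lay below 0. The median was -0.42 for the 3 standard catalytic subunits and -0.47 for 11 other core subunits, against -0.03 for all genes. Whether the immunoproteasome differs from the rest of the proteasome here was not tested. The combod18t values of all 3 immunoproteasome subunits were also the lowest T-like values of the 5 libraries.

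The make-up of the class differed between these libraries. Cluster 3 (Lef1, a gene of resting T cells) held 1292 of its 2595 cells, against 190 of 1258 in ctxd18t. Cluster 3 has low levels of these subunits in every library (Psmb8 162 to 306 CPM). The lower values also stood within it: Psmb8 was 162 CPM in combod18t and 306 in ctxd18t, and Psmb10 35.2 and 85.8; all 3 subunits were called lower there, where 6.34% of genes were. Within cluster 6 (Dapl1) the same 3 were called lower (6.92% of genes lower), and within cluster 10 these and Tap1 (4.75%). In cluster 9 Psmb8 was called lower (4.9%). In clusters 7 (Gzmk), 12 (Ccl1, Ifng) and 15 (Mki67, Top2a) none was called, where 5.77%, 8.29% and 8.3% of genes were called either way. With the same mix of clusters in both libraries the ratios were -0.56 for Psmb8, -0.48 for Psmb9 and -0.60 for Psmb10. Only Psmb10 was then called, where 1.68% of genes were called lower.

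**Figure D5:**
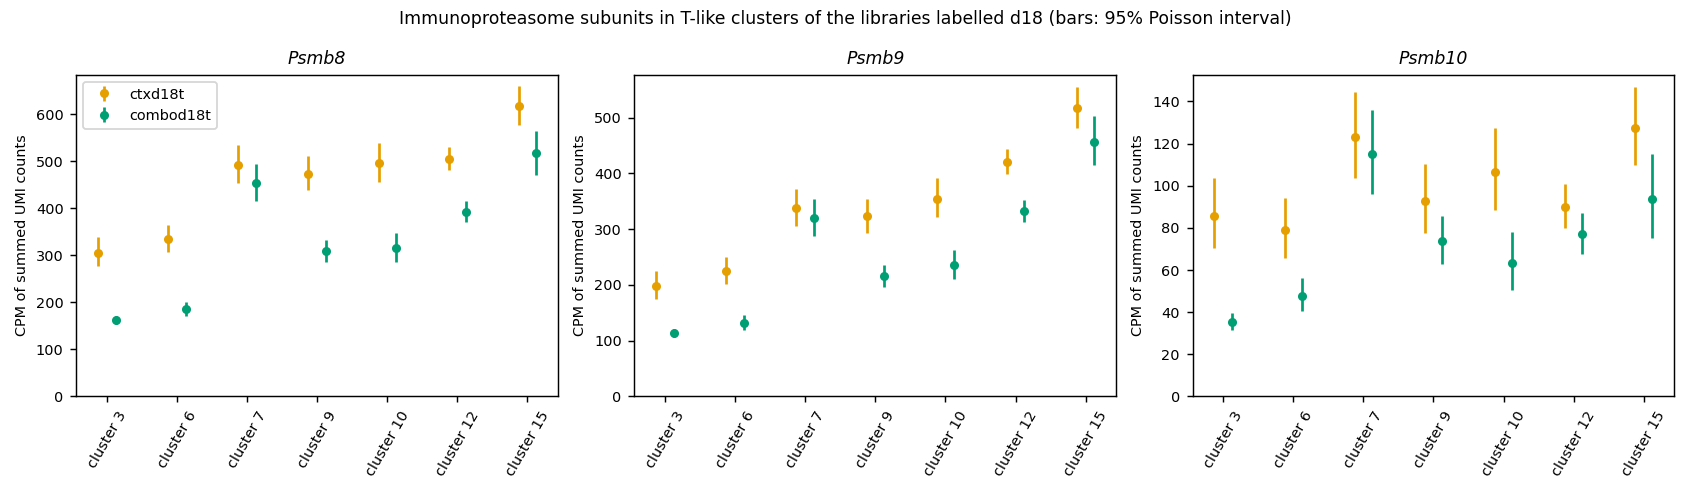
Psmb8, Psmb9 and Psmb10 (CPM of summed counts, 95% Poisson intervals) in the T-like clusters with at least 20 cells in both d18 libraries. In clusters 3 and 6 the combod18t points lie below ctxd18t for all 3 genes, whereas in cluster 7 the intervals overlap.

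Monocyte-macrophage-like cells had no member called at day 18 (5.61% of genes were), and the 10 ratios lay between -0.22 (Psmb8) and 0.03 (H2-K1). B2m was 4184 CPM in ctxd18t and 3798 in combod18t, and H2-K1 1493 and 1522. Cluster 17 had its chains higher in combod18t: B2m was 1068 CPM in ctxd18t and 1977 in combod18t, a ratio of 0.89 (0.82 to 0.96), H2-K1 0.71 and H2-D1 0.69, called higher where 15.1% of 6335 genes were called (7.23% higher). Its Psmb8 was at -0.41 and Psmb10 at 0.00. In ctxd18t these chains were lower than in any named class. The values rest on 253 cells in ctxd18t and 73 in combod18t. The monocyte-macrophage markers summed to 487 CPM in ctxd18t and 1694 in combod18t in this cluster (14 and 12 of 14 detected), the T markers to 183 and 630 (11 of 11 in both) and the B markers to 7682 and 5133; their part in the result was not tested.

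In epithelial-like cells, combod18t against ctxd18t had B2m called higher at 0.67 (0.63 to 0.72) and Nlrc5 (-1.10), Tap1 (-0.88) and Psmb9 (-0.72) called lower, where 17.2% of 4839 genes were called (6.08% higher and 11.1% lower). Nlrc5 rests on 38 and 153 counts and Tap1 on 37 and 128. The deepest of the 20 combod18t cells held 15.4% of their UMIs, and over the other 19 cells B2m was 6750 CPM. That value still holds cells of 114775 and 114631 UMIs, with B2m at 11954 and 11664 CPM. Whether the B2m call stands without these deep cells was not tested. Medians per cell were closer, 4684 CPM against 3892. NK-like, B-like cluster 2, neutrophil-like and pDC-like cells had no member called (8.15%, 6.82%, 10.1% and 14.1% of genes), and cDC2-like cluster 32 had 1 of 9 called lower, Psmb10 at -0.73 (15.9%, 6.07% lower).

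Other genes of the pathway, taken from fixed lists, were followed in monocyte-macrophage-like and T-like cells. In monocyte-macrophage-like cells, CTX against MRX called 1 of 7 peptide loading and trimming genes higher, Tapbpl at 0.85, and 1 of 5 proteasome activators and assembly factors, Psme2 at 1.05 (671 against 323 CPM), a part of the PA28 cap. None of the 3 standard catalytic subunits (median 0.45) and 4 of 11 other core subunits were called, led by Psma5 at 0.85. Of 9 class Ib and related molecules with enough counts, out of 15, 5 were called higher, among them H2-T23 (Qa-1) at 1.06 and H2-Q7 at 0.82. Among the regulators and interferon receptors, Socs1, an inhibitor of cytokine signalling, was called higher at 1.91, as were the transcription factors Irf1 at 1.49 and Stat2 at 0.83. Ifngr1, a chain of the interferon-gamma receptor, was called lower at -0.79.

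Combined against MRX called more of the proteasome in the same cells: all 3 standard catalytic subunits, 9 of 11 other core subunits and 2 of 5 activators, with Psme2 at 1.42. Among the class Ib and related molecules 8 of 9 were called higher, H2-T23 at 1.16 and H2-T22 at 1.11 included, and Fcgrt, the neonatal Fc receptor chain that pairs with B2m, lower at -0.71. In T-like cells of Combined against MRX 8 of 11 other core subunits were called higher, from 0.59 (Psma2, Psma6) to 0.71 (Psma4). Combined against CTX called only Socs1 across these lists, at 0.91 in monocyte-macrophage-like and 0.83 in T-like cells. At day 18 Socs1 was the single one called in monocyte-macrophage-like cells, at -1.43. In T-like cells of combod18t against ctxd18t, Tapbpl (-0.76), Psme2 (-0.63), Pomp (-0.60), Psma2 (-0.59), Psma4 (-0.66), H2-M3 (-0.63) and Ifnar2 (-0.62) were called lower, and Ifngr2, the other chain of the interferon-gamma receptor, higher at 1.68 (277 against 85.9 CPM).

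Across 45 points (12 classes or clusters in up to 5 libraries) the members' profiles were alike to different degrees. Pearson's r of a member's log2 level with the mean of the other 9 was 0.91 for Tap2, 0.87 for Tap1, 0.85 for Psmb8, 0.84 for Psmb9, 0.81 for H2-D1, 0.77 for B2m, 0.75 for Tapbp, 0.74 for Psmb10 and 0.71 for H2-K1. Nlrc5 stood apart at 0.26. Of 6690 genes considered, a number that counts the members too, the closest non-members to the members' mean were Psme2 (0.95), Bak1 (0.74), Psme1 (0.74), Plaat3 (0.74), Arf5 (0.73), Mx1 (0.73), Aup1 (0.71), Fam89b (0.71), Ifi35 (0.70) and Itm2c (0.70). Psme1 and Psme2 encode the PA28 cap of the proteasome. The points share libraries and classes, so these values describe the profiles and have no p.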

How the data were processed

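Per the labels' protocols, 3′ libraries were made with an on-chip multiplexing kit and run through Cell Ranger 9.0.1 by the authors; the submitters' processing notes name GRCm39 and Seurat 5.2.0. The deposited values are whole UMI counts for each gene in each cell, without normalisation. Cells with at least 200 genes and at most 15% mitochondrial counts were kept. Scrublet (scanpy 1.11.5) marked under 0.5% by itself, so the highest 5% of scores were removed. The 2000 most variable genes, without the members, the pathway lists and all H2- genes, gave 30 components, a graph of 15 neighbours and Leiden clusters (leidenalg 0.10.2, resolution 1). Clusters took names from marker lists. Left out were clusters 13, 19 and 30, whose markers came from a pair of lineages, and B and cDC2 cells were compared by cluster. The naming and exclusion rules were chosen after the data were seen. Levels, ratios and intervals (scipy 1.17.1) are as given above; classes under 20 cells got no value. The members and lists were chosen with earlier results of these data known. The named genes are the members, up to 5 list genes past 1.5-fold per comparison and class by size, and the 10 genes closest to the members' mean profile; further list genes and all cluster findings named were chosen after their values were seen. Of the regulator list 1 gene is not reported here. The ratio step was tested on simulated counts. Alternatives covered doublets, cell filter, resolution, mixed clusters, scaling, pseudocount, the mean over cells, thinning and the gene filter.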

Additional observations from a re-analysis of the deposited data

Results flagged for a closer look

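Some members had opposite signs, with counting intervals that leave out 0 on both sides, in the 2 comparisons of the combination with CTX, Combined against CTX and combod18t against ctxd18t, which share no library. With 1 library on each side the difference between the comparisons was not tested, and the d18 labels carry the limit given with the barcodes. In T-like cells 7 genes were above 0 in the first and below 0 in the second. Psmb10 went from 0.21 to -0.72, a gap of 0.93 on the log2 scale. Tapbp had a gap of 0.61 (0.45 and -0.16), Tap2 of 0.57, Tap1 of 0.43, B2m of 0.40, H2-K1 of 0.37 and H2-D1 of 0.27. The make-up of the T-like class differed between the d18 libraries, and not all of these day 18 signs held within its clusters. B2m and Psmb10 were below 0 in every T-like cluster compared, and the others varied in sign. H2-K1, H2-D1 and Tapbp were above 0 in cluster 3 (0.20, 0.20 and 0.19) and in cluster 7 (0.08, 0.16 and 0.10). In monocyte-macrophage-like cells 3 genes did so: Psmb10 with a gap of 0.57 (0.42 and -0.15), Psmb8 with 0.52 (0.30 and -0.22) and Psmb9 with 0.28 (0.16 and -0.12). Tap1, Tap2 and Nlrc5 also had opposite signs there, but their day 18 intervals include 0. Of the 20 ratios with intervals that leave out 0, only that of Psmb10 in T-like cells at day 18 passed 1.5-fold.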

How the results depend on the processing

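Of 720 recomputed log2 ratios of members in monocyte-macrophage-like and T-like cells, 550 stayed within the counting interval of the reported value and 170 moved beyond it; no called ratio changed sign. Of 72 recomputed counts of called members, 65 stayed within 1.5 times. Thinning each cell to 1000 UMIs gave 2 members called in monocyte-macrophage-like cells for combod18t against ctxd18t in place of 0 (Psmb8 at -0.59 and Psmb9 at -0.63), 0 in T-like cells for CTX against MRX in place of 1, and 3 for Combined against MRX in place of 1. The same mix of clusters, an alternative chosen after seeing the data, gave a T-like count of 1 for combod18t against ctxd18t in place of 3. It gave 0 for CTX against MRX and 3 for Combined against MRX. With likely doublets kept, the T-like count for Combined against MRX was 2. The cause was not tested. Without the filter on low values, the share of genes called rose from 5.61% to 13.5% for combod18t against ctxd18t in monocyte-macrophage-like cells and from 2.16% to 5.51% for Combined against CTX in T-like cells. Scaling by the median of ratios moved every log2 ratio by 0.09 or less. No paired analysis was possible because each label has 1 library, and for the same reason no replicate could be left out. Low counts limit the epithelial-like values, where Tap1 and Psmb10 rest on 37 counts each in combod18t and Nlrc5 on 38. Some other values rest on fewer. Nlrc5 in cDC2-like cluster 11 of MRX has 25 counts, and the Psmb10 share of cluster 24 in CTX comes from 5 Psmb10 and 11 Psmb7 counts.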
